A study of Mus musculus with 24 samples.

Results

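The enzymes and transporters that carry glucose through the heart were followed in 36 genes of 15875 tested. They comprise glucose and lactate carriers, the steps of glycolysis, the kinases that set its pace, the E1 subunits of pyruvate dehydrogenase with their inhibitory kinases, and the enzymes that store and break down glycogen. The genes were chosen by name, as probes whose accession maps to the listed symbols, and the brightest probe stood for each gene. All 36 were measured, and the chosen probe of each was well above background on 24 of 24 arrays. By the isoform that muscle or inflammatory cells are known to favour, 12 were classed as muscle isoforms, 14 as isoforms of inflammatory cells and 10 as shared steps. The classes are working assignments that were not measured here, and most of these genes are used by several cell types. Some fit loosely. Aldoc, classed with inflammatory cells, is best known from brain. Pfkfb1, classed with shared steps, is the isoform of liver and skeletal muscle. The genes and the classes were chosen with earlier results of these data known. Their counts beside the shares of all genes are therefore descriptions and not independent support.

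The arrays, 24 Agilent arrays of 1 colour, carried RNA of the anterior wall of the heart, taken from the area at risk in male C57BL6/J mice, with 4 in each of 6 groups. In every group the left anterior descending artery had been closed for 45 min, per the sample labels, and reopened for 24, 48 or 168 h. The 3 IGF1 groups received recombinant IGF1, insulin-like growth factor 1, which drives growth and glucose uptake: 40 ng/g under the skin as reperfusion began, and 1 µg/g daily by osmotic pump for 3 days. The 3 vehicle groups received PBS with albumin. The text on the design calls the controls sham-operated, whereas the labels of the vehicle samples name ischemia, and the labels were followed. All 14 cardiomyocyte markers checked, among them Myh6 and Tnnt2, were well above background on all 24 arrays. All mice had isoflurane and buprenorphine. By 168 h the infusion had ended. No age is given in the labels. They do not tie arrays to animals, and p-values therefore cover only the spread among these arrays, which may be technical.

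Glucose enters cells through carriers of the Slc2a family, is trapped by hexokinase and is split by glycolysis into pyruvate, which either becomes lactate or enters the mitochondria through pyruvate dehydrogenase. The working heart burns mostly fatty acids, keeps an insulin-responsive carrier (Slc2a4, GLUT4) inside the cell until it is called, and holds glycogen as a reserve. Neutrophils and activated macrophages, which flood an infarct, depend heavily on glycolysis and use other isoforms of many of the same enzymes. In a piece of tissue, fewer cells of a type and less RNA per cell cannot be told apart, and this holds for every result below.

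Levels are on a log2 scale with the 75th percentile of each array at 0, so a difference of 1 is a 2-fold change. Levels of different genes come from different probes and are not compared with each other. A gene was called when limma's moderated test gave a Benjamini-Hochberg adjusted p, over all 15875 genes, under 0.05. Arrays of a group correlated across genes with r between 0.983 and 0.993, and genes are not independent replicates. Per array, 52.8% to 62.9% of spots stood well above background.

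At 24 h, 7 of the 12 muscle isoforms were higher in IGF1 than in vehicle hearts. Of the 36 genes, 10 rose and 0 fell, while 8.76% of all genes tested were called higher and 7.26% lower. The 10 were 7 of the 12 muscle isoforms (Pdk2, Pygm, Pfkm, Ldhb, Slc2a4, Gys1 and Pgam2) and 3 of the 10 shared steps (Pfkfb1, Pdha1 and Tpi1), with 0 of the 14 isoforms of inflammatory cells. The median log2 difference was 0.48 for muscle isoforms, 0.19 for shared steps and -0.24 for isoforms of inflammatory cells, against 0.0064 over all genes. The 4 IGF1 arrays lay wholly above the 4 vehicle arrays for 12 of the 36 genes and wholly below for 2 (Hk3 and Slc16a3). Over all genes, 18.3% were without overlap in either direction. By limma, 2 isoforms of inflammatory cells had an unadjusted p under 0.05 (Slc2a1 and Pfkfb4), and neither passed after adjustment.

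**Figure D1:**
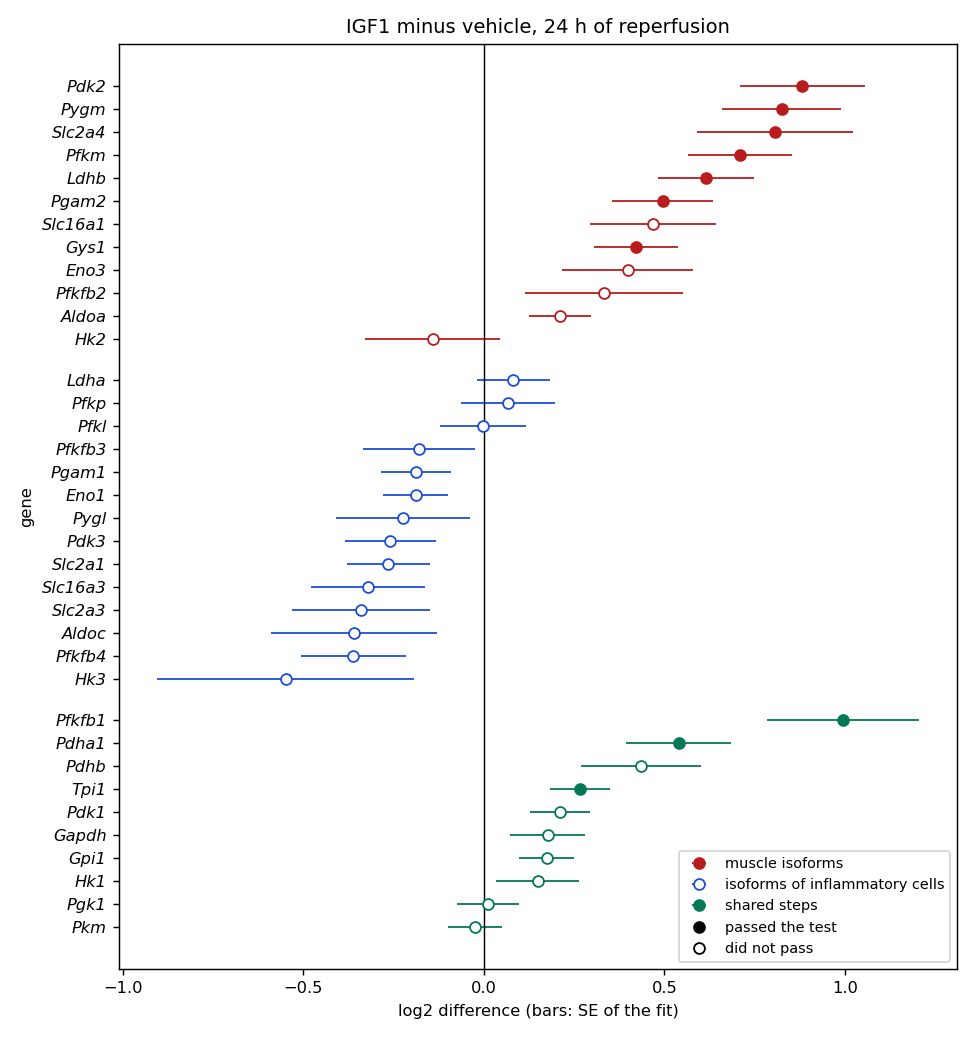
Log2 difference between IGF1 and vehicle at 24 h of reperfusion for the 36 genes, with the SE of the fit over 24 arrays as bars and 4 arrays in each group. Filled points passed the test; 7 of 12 muscle isoforms are filled, 0 of 14 isoforms of inflammatory cells, and 3 of 10 shared steps.

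Among carriers, Slc2a4, the glucose carrier that insulin brings to the muscle cell surface, stood at 4.44, 4.27, 3.65 and 4.68 in vehicle hearts at 24 h and at 5.72, 4.94, 4.90 and 4.71 in IGF1 hearts. The 2 groups did not overlap, though the lowest IGF1 array lay next to the highest vehicle array. The difference was 1.75-fold (log2 0.81, SE 0.22, limma adjusted p = 0.0166). Slc2a1, the basal carrier of most cells, was not called (log2 -0.26, SE 0.11, adjusted p = 0.122), nor was Slc2a3, the high-affinity carrier of neurons and white blood cells (log2 -0.34, SE 0.19). Slc16a1, which moves lactate in either direction and serves its uptake in heart, had a difference of 0.47 (SE 0.18, adjusted p = 0.0734). Slc16a3, which exports lactate from glycolytic cells, had a difference of -0.32 (SE 0.16, adjusted p = 0.177).

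The step that commits sugar to glycolysis is made by phosphofructokinase, whose subunits are Pfkm (muscle), Pfkl (liver) and Pfkp (platelet). Pfkm was at 5.12, 4.98, 4.85 and 5.51 in vehicle and 6.21, 5.75, 5.68 and 5.66 in IGF1 hearts at 24 h. All 4 IGF1 arrays were above all 4 vehicle arrays, by 1.64-fold between means (log2 0.71, SE 0.14, adjusted p = 0.00373). Pfkp differed by 0.07 (SE 0.13) and was not called, nor was Pfkl. Fructose 2,6-bisphosphate, the strongest activator of phosphofructokinase, is made and removed by the Pfkfb enzymes. Pfkfb1, the isoform of liver and skeletal muscle, was at -0.81, -0.94, -1.0 and -0.87 with vehicle and at 0.70, 0.47, -0.59 and -0.22 with IGF1. Its vehicle arrays were close together and its IGF1 arrays far apart, with 2 of them well above the others (1.99-fold, log2 1.00, SE 0.21, adjusted p = 0.00463). Pfkfb2, the heart isoform, had a difference of 0.33 (SE 0.22) and was not called, nor were Pfkfb3 (-0.18) and Pfkfb4 (-0.36), the isoforms induced by hypoxia and growth signals. None of the hexokinases passed: Hk1, the general form, differed by 0.15, Hk2, the insulin-responsive muscle form, by -0.14, and Hk3, a form of myeloid cells, by -0.55 (SE 0.36).

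In the rest of the glycolytic chain the calls were few. Tpi1, triose phosphate isomerase, rose by 0.27 on the log2 scale (SE 0.08, adjusted p = 0.0332). Its call was lost in 9 of 19 alternative fits, 5 with other settings and 4 with 1 array left out. The muscle phosphoglycerate mutase Pgam2 was 1.41-fold higher (log2 0.50, SE 0.14, adjusted p = 0.0217), at 6.66, 6.28, 6.22 and 6.66 in vehicle and 7.12, 6.93, 6.96 and 6.79 in IGF1 hearts, without overlap. The muscle enolase Eno3 had a difference of 0.40 (SE 0.18) and muscle aldolase Aldoa one of 0.21 (SE 0.09), and neither passed. Gapdh (0.18), Gpi1 (0.17), Pgk1 (0.01) and Pkm (-0.02), which serve glycolysis in all cells, did not pass either. Their counterparts Aldoc (-0.36), Pgam1 (-0.19) and Eno1 (-0.19) had differences below 0 and were not called. Ldhb, the heart form of lactate dehydrogenase, rose from 7.22, 6.86, 6.92 and 7.19 in vehicle to 7.95, 7.60, 7.58 and 7.53 in IGF1 hearts, a 1.53-fold difference without overlap (log2 0.61, SE 0.13, adjusted p = 0.00524). Ldha, the form of glycolytic tissues, differed by 0.08 (SE 0.10) and was not called.

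Genes on both sides of glycogen were higher at 24 h. The muscle glycogen phosphorylase Pygm, which releases glucose from the store and is missing in McArdle disease, was at 4.17, 4.15, 4.02 and 4.52 in vehicle and 5.50, 4.89, 4.89 and 4.87 in IGF1 hearts. This was 1.77-fold higher without overlap (log2 0.82, SE 0.16, adjusted p = 0.00346). The muscle glycogen synthase Gys1, which builds the store, was 1.34-fold higher (log2 0.42, SE 0.12, adjusted p = 0.0189), from 2.47, 2.60, 2.16 and 2.69 to 3.16, 2.85, 2.83 and 2.77. Pygl, the phosphorylase of liver and white blood cells, had a difference of -0.22 (SE 0.19). Of 19 further glycogen genes measured of 20 listed, 7 rose and 0 fell, with a median of 0.29. They included Phka1, Phkb and Phkg1, subunits of the kinase that switches phosphorylase on, at log2 0.78 (SE 0.13), 0.48 (SE 0.10) and 1.33 (SE 0.26), and Pgm1, which links glycogen to glycolysis, at 0.46 (SE 0.10). Phkg1 is the catalytic subunit of muscle, and its adjusted p was 0.00325.

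Among genes of pyruvate dehydrogenase and the kinases that switch it off, Pdk2 and Pdha1 rose at 24 h, as did Pdk4, while Pdhb, Pdk1 and Pdk3 were not called. Pdk2, a kinase of the heart that inhibits the complex, was at 2.84, 2.59, 2.45 and 3.11 in vehicle and 4.16, 3.43, 3.51 and 3.41 in IGF1 hearts. The arrays did not overlap and the difference was 1.84-fold (log2 0.88, SE 0.17, adjusted p = 0.00306). Pdha1, the E1 alpha subunit that these kinases phosphorylate, was 1.45-fold higher (log2 0.54, SE 0.14, adjusted p = 0.0165), from 4.86, 4.64, 4.81 and 5.0 to 5.47, 5.27, 5.31 and 5.40. Pdhb, its partner subunit, had a difference of 0.44 (SE 0.17, adjusted p = 0.0768), Pdk1 of 0.21 (SE 0.08) and Pdk3 of -0.26 (SE 0.13). Pdk4, a kinase that is not among the 36 genes and responds to fasting, was at 3.86, 3.67, 4.86 and 3.64 in vehicle and 6.25, 6.11, 4.96 and 6.04 in IGF1 hearts, and was 3.58-fold higher (log2 1.84, SE 0.33, adjusted p = 0.00196). Vehicle replicate 3 and IGF1 replicate 3, at 4.86 and 4.96, were nearly level. Of 10 further genes of pyruvate entry, Pdk4 included, 8 rose and 0 fell (median 0.53), among them Dlat, the E2 core of the complex (0.69, SE 0.18), the mitochondrial pyruvate carrier Mpc1 (0.45, SE 0.12), and Pdpr, which regulates the phosphatase of the complex (0.58, SE 0.13).

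**Figure D2:**
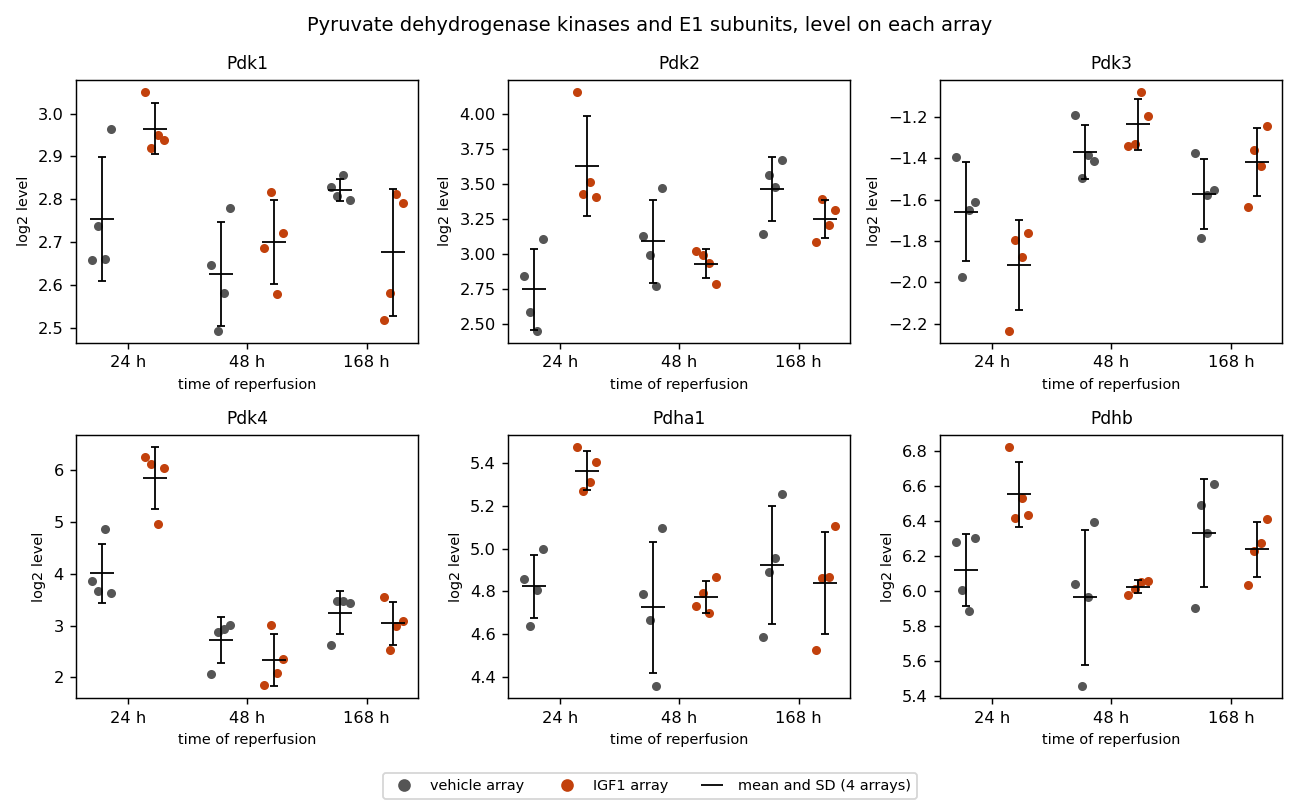
Level on each array, in log2 units with the 75th percentile at 0, of 4 pyruvate dehydrogenase kinases and the 2 E1 subunit genes over the 6 groups, with mean and SD of 4 arrays. At 24 h the IGF1 arrays of Pdk2, Pdk4 and Pdha1 all lie above the vehicle arrays, and at 48 and 168 h 0 of the 6 genes was called.

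Neighbouring routes of glucose differed at 24 h. Of 11 genes of the pentose phosphate, hexosamine and polyol routes, 1 rose and 2 fell: Sord, which makes fructose from sorbitol, by 0.56 (SE 0.14), Pgd by -0.43 (SE 0.10) and Tkt by -0.41 (SE 0.10), the last 2 being enzymes of the pentose phosphate route. Of 17 further genes of glycolysis and glucose or lactate transport, 6 rose and 0 fell, the muscle fructose bisphosphatase Fbp2 by 1.59 (SE 0.38), Ldhd, which oxidises D-lactate, by 0.65 (SE 0.13), the intracellular carrier Slc2a8 by 0.64 (SE 0.15) and Gpd1, which links glycolysis to glycerol, by 0.47 (SE 0.12). Of 24 regulators of glucose use, 5 rose and 0 fell. They included Klf15, a factor that drives Slc2a4 in muscle (1.02, SE 0.22), Epas1, a hypoxia-inducible factor (0.52, SE 0.09), Egln1, the oxygen sensor that marks such factors for decay (0.52, SE 0.13), and the muscle factor Mef2d (0.39, SE 0.09).

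Cardiomyocyte markers moved with the muscle isoforms at 24 h: 8 of 14 rose and 0 fell, with a median of 0.42 against 0.48 for the muscle isoforms. The log2 of their summed signal was 11.09 to 11.49 in vehicle and 11.45 to 11.71 in IGF1 hearts. By calls and median, monocyte and macrophage markers went the other way, with 1 of 15 higher and 8 lower (median -0.59). Their summed signal overlapped, at 8.23 to 8.58 in vehicle and 8.25 to 8.68 in IGF1 hearts. Lymphocyte markers were lower by both measures, with 0 of 8 higher and 7 lower (median -1.16; summed signal 1.75 to 2.12 and 0.63 to 1.16). Of 11 neutrophil markers 1 rose and 0 fell (median 0.07; 8.45 to 9.08 and 8.77 to 9.11). Of 7 skeletal muscle markers measured of 11 listed, 2 rose and 1 fell (median 0.25), while Myh1, Myh2, Myh4 and Actn3 were not kept among the genes tested. Of 10 fibroblast, 8 endothelial and 5 red cell markers 0 were called, and of 5 adipocyte markers 1 rose. The part of any of these in the changes of the 36 genes was not tested.

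IGF1 replicate 1 stood apart at 24 h: it was the highest of its group for all of Pdk2, Pygm, Pfkm, Slc2a4, Ldhb and Gys1. Without it 5 genes were called (Ldhb, Pdk2, Pfkfb1, Pfkm and Pygm), and without vehicle replicate 3, the lowest for Slc2a4 and Pygm, 6 were called (the same 5 and Pdha1). With only the 2 groups at 24 h in the fit, 5 were called, among them Ldhb, Pdha1, Pdk2 and Pygm. Pfkm, Pfkfb1, Slc2a4, Gys1, Pgam2 and Tpi1 lost their calls in that fit. Each of the 4 slides held 1 vehicle and 1 IGF1 array of 24 h. The median difference of the muscle isoforms within a slide was 0.71, 0.61, 0.70 and 0.11, and that of the isoforms of inflammatory cells -0.33, -0.21, -0.17 and -0.15. The fourth slide thus gave the smallest difference for muscle isoforms.

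At 48 and 168 h, no difference between IGF1 and vehicle hearts passed the test in these genes. At 48 h limma called 0 of the 36, with 2 at an unadjusted p under 0.05 (Hk1 at 0.31 and Ldha at -0.23), while 0.0% of all genes were called higher and 0.0126% lower. At 168 h it called 0, with 0 at an unadjusted p under 0.05, and 0.0% of all genes in either direction. The largest differences in size at 48 h were -0.41 for Pfkfb2 (SE 0.22) and 0.31 for Hk1 (SE 0.12). The median over muscle isoforms was -0.08 at 48 h and -0.14 at 168 h, with 0 of 12 above 0 at 168 h. The mean of the 3 times called 0 of the 36, with 1 at an unadjusted p under 0.05 (Pfkfb1, adjusted p = 0.178), while 0.063% of all genes were called higher and 0.466% lower. Without IGF1 replicate 3 of 24 h, 1 gene was called in this mean.

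Whether the effect of IGF1 changed with time was asked with limma's F-test of the interaction. It called 4 of the 36 genes, Pfkm (adjusted p = 0.0152), Pdk2 (0.0178), Pygm (0.0216) and Ldhb (0.0350), all muscle isoforms, while 5.67% of all genes passed. In the contrast of the effect at 168 h with that at 24 h, 7 of the 36 genes were called lower and 0 higher, while 5.35% of all genes were called lower and 5.73% higher. For the 4 genes the effect at 168 h was below that at 24 h by -0.91 (SE 0.20), -1.10 (SE 0.24), -1.01 (SE 0.23) and -0.74 (SE 0.19) in the order given. The others of the 7 were Slc2a4 (-0.97, SE 0.31), Gys1 (-0.54, SE 0.16) and Tpi1 (-0.38, SE 0.12). Between 24 and 48 h the change of the effect was called by limma for 0 of the 36, with 14 at an unadjusted p under 0.05, while 0.0189% of all genes were called higher and 0.0819% lower. The F-test called 2 genes without vehicle replicate 2 or IGF1 replicate 1 of 24 h, 7 without vehicle replicate 1 of 168 h, 7 with slide as a block and 8 with array weights.

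In vehicle hearts, most isoforms of inflammatory cells fell with time and 6 of the 12 muscle isoforms rose. From 24 to 168 h, 9 of the 36 genes rose and 14 fell, while 28.1% of all genes were called higher and 32.1% lower. Of the 12 muscle isoforms 6 rose and 1 fell (median 0.35), and of the 14 isoforms of inflammatory cells 1 rose and 10 fell (median -0.80), with -0.027 over all genes. Of the 10 shared steps 2 rose and 3 fell (median 0.02). The exceptions were Hk2, a muscle isoform that fell (-0.61, SE 0.19), and Pfkl, classed with inflammatory cells, which rose (0.44, SE 0.12). The 4 arrays of 168 h lay wholly above those of 24 h for 6 genes and wholly below for 14, while 52.9% of all genes were without overlap in either direction. Of the 4 slides, 2 held vehicle arrays of both times. Within them the median difference was 0.17 and 0.49 for muscle isoforms and -0.93 and -0.73 for isoforms of inflammatory cells.

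**Figure D3:**
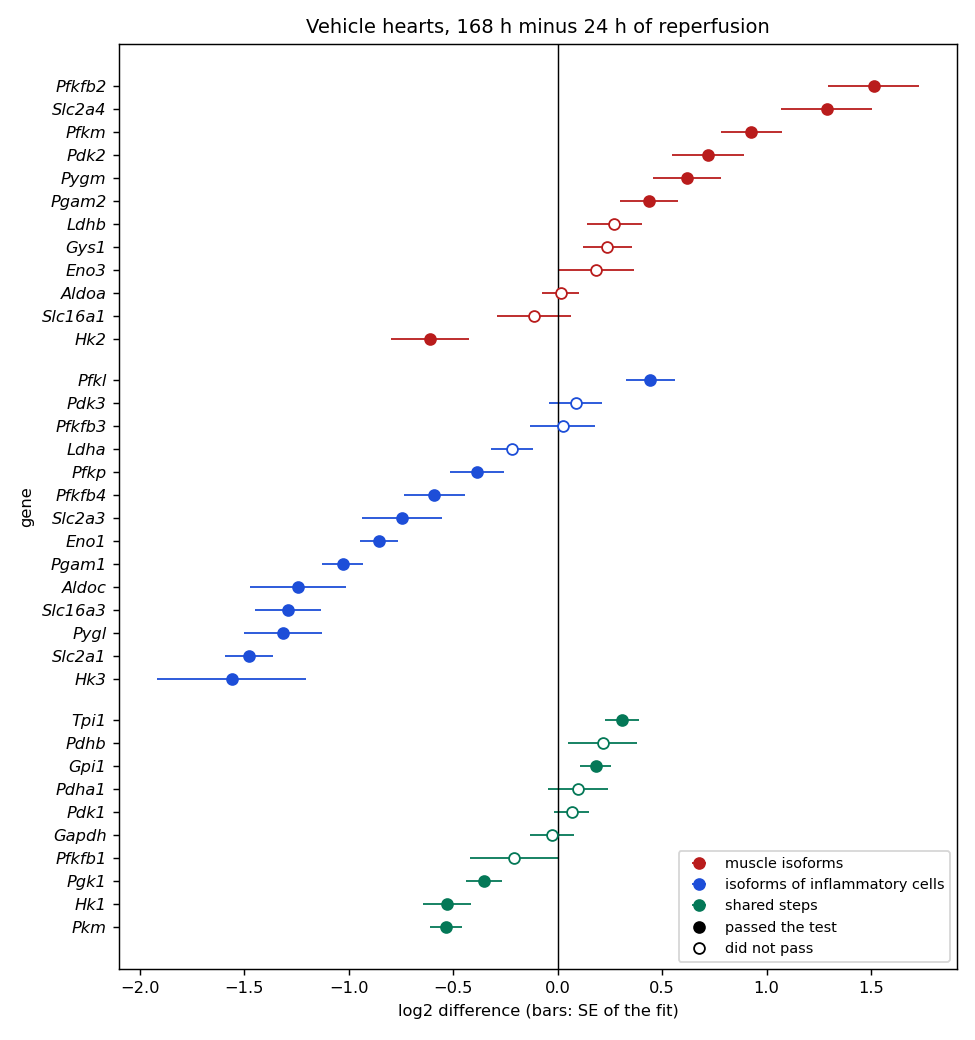
Log2 difference between 168 h and 24 h in vehicle hearts for the 36 genes, with the SE of the fit as bars and 4 arrays at each time. Of the isoforms of inflammatory cells, 10 of 14 pass the test on the lower side, and of the muscle isoforms 6 of 12 pass on the higher side.

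Glucose carriers moved in opposite directions. Slc2a1 went from 3.37, 3.78, 3.57 and 3.53 at 24 h through 3.19, 3.33, 3.28 and 3.05 at 48 h to 2.26, 2.05, 2.07 and 1.95 at 168 h. The 168 h arrays lay below every earlier vehicle array, and the fall from 24 h was 2.79-fold (log2 -1.48, SE 0.11, adjusted p = 1.18e-09). Slc2a4 went from 4.44, 4.27, 3.65 and 4.68 through 5.23, 4.95, 5.01 and 5.77 to 5.24, 5.67, 5.51 and 5.77. Most of that rise was present at 48 h (0.98, SE 0.22, adjusted p = 0.00299), and over the whole interval it was 2.44-fold (log2 1.29, SE 0.22, adjusted p = 3.01e-05). Slc2a3 fell by 0.75 (SE 0.19). The lactate exporter Slc16a3 went from 3.58, 4.03, 3.79 and 3.94 through 3.84, 3.69, 3.77 and 3.42 to 2.88, 2.12, 2.28 and 2.88, without overlap between 168 h and either earlier time (2.45-fold lower than at 24 h, log2 -1.29, SE 0.16, adjusted p = 5.72e-07). Slc16a1 was not called (-0.11, SE 0.18).

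Within glycolysis, Pgam1 and Eno1 fell while Pgam2 and Pfkm rose. Pgam1, the mutase of most tissues, was at 5.65, 5.65, 5.61 and 5.49 at 24 h, 5.69, 5.75, 5.58 and 5.43 at 48 h and 4.60, 4.73, 4.51 and 4.43 at 168 h, which placed its whole fall after 48 h (log2 -1.04, SE 0.10, adjusted p = 3.19e-08). Pgam2 rose by 0.44 between 24 and 168 h (SE 0.14, adjusted p = 0.0104), ending at 6.43, 6.95, 6.98 and 7.21, with overlap of the groups. Eno1 fell from 6.36, 6.40, 6.40 and 6.63 through 6.31, 6.22, 6.18 and 6.42 to 5.56, 5.53, 5.51 and 5.77 (-0.86, SE 0.09, adjusted p = 8.26e-08), while Eno3 was not called (0.18, SE 0.18). Pfkm rose to 5.79, 6.08, 6.04 and 6.26 at 168 h from the 24 h values above (0.93, SE 0.14, adjusted p = 1.15e-05), and its values at 48 h were 5.37, 5.27, 5.17 and 5.73. Pfkl rose from 1.23, 1.72, 1.21 and 1.73 through 1.66, 1.64, 1.51 and 1.67 to 1.83, 2.02, 2.05 and 1.77, while Pfkp fell by 0.39 (SE 0.13). Pkm, pyruvate kinase, fell by 0.53 (SE 0.07), Pgk1 by 0.35 (SE 0.09), and Hk1 by 0.53 (SE 0.12).

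Some members classed with inflammatory cells fell unevenly. Hk3 was at 2.82, 2.92, 3.07 and 2.95 at 24 h, 3.80, 3.31, 3.47 and 3.30 at 48 h and 2.31, 0.45, 0.60 and 2.15 at 168 h. At 168 h, replicates 2 and 3 were far below replicates 1 and 4, yet all 4 lay below every earlier array (168 h against 24 h -1.56, SE 0.36, adjusted p = 0.000738). Aldoc, an aldolase best known from brain, showed the same split at 168 h, with -0.77, -2.11, -1.90 and -0.78 after -0.83, -0.88, -1.02 and -0.96 at 48 h and -0.22, 0.09, -0.36 and -0.10 at 24 h. Its fall from 24 h was called (-1.24, SE 0.23) and that from 48 h was not (-0.47, adjusted p = 0.0944). Pygl fell in steps, from 3.36, 2.90, 3.52 and 3.13 through 2.60, 2.37, 2.73 and 2.05 to 2.36, 1.41, 1.58 and 2.29, again lowest in replicates 2 and 3 at 168 h (-1.32, SE 0.19, adjusted p = 3.78e-06). Pfkfb4 fell by 0.59 (SE 0.15), from 1.89, 1.40, 2.03 and 1.58 through 1.33, 1.22, 1.5 and 1.0 to 1.26, 0.75, 1.37 and 1.16. Pfkfb3 (0.02) and Pdk3 (0.09) were not called, and Ldha (-0.22, SE 0.10) was not called either.

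Pfkfb2, Pdk2 and Pygm, muscle isoforms of enzymes that control glucose use, rose between 24 and 168 h. Pfkfb2 went from 0.55, 0.61, 0.08 and 0.89 through 1.53, 1.26, 1.27 and 1.99 to 1.87, 2.01, 1.98 and 2.33, without overlap from 24 h at either later time (168 h against 24 h 2.85-fold, log2 1.51, SE 0.22, adjusted p = 5.13e-06). Pdk2 rose by 0.72 (SE 0.17), with 3.13, 2.99, 2.77 and 3.47 at 48 h and 3.14, 3.56, 3.48 and 3.68 at 168 h. Pygm rose by 0.62 (SE 0.16), with 4.33, 4.27, 3.96 and 4.65 at 48 h and 4.42, 4.98, 4.86 and 5.07 at 168 h, replicate 1 being the lowest at 168 h. Gys1 was higher at 48 h than at 24 h (0.46, SE 0.12, adjusted p = 0.00778; 2.92, 2.87, 2.80 and 3.16) and was not called between 24 and 168 h (0.24; 2.46, 2.78, 2.83 and 2.82). Tpi1 rose by 0.31 (SE 0.08) and Gpi1, glucose phosphate isomerase, by 0.18 (SE 0.08). The Gpi1 call was lost in 10 of 19 alternative fits and the Tpi1 call in 1. Ldhb, Aldoa, Slc16a1, Pdha1, Pdhb, Pdk1 and Gapdh were not called between 24 and 168 h, with differences of 0.27, 0.01, -0.11, 0.10, 0.22, 0.07 and -0.03.

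**Figure D4:**
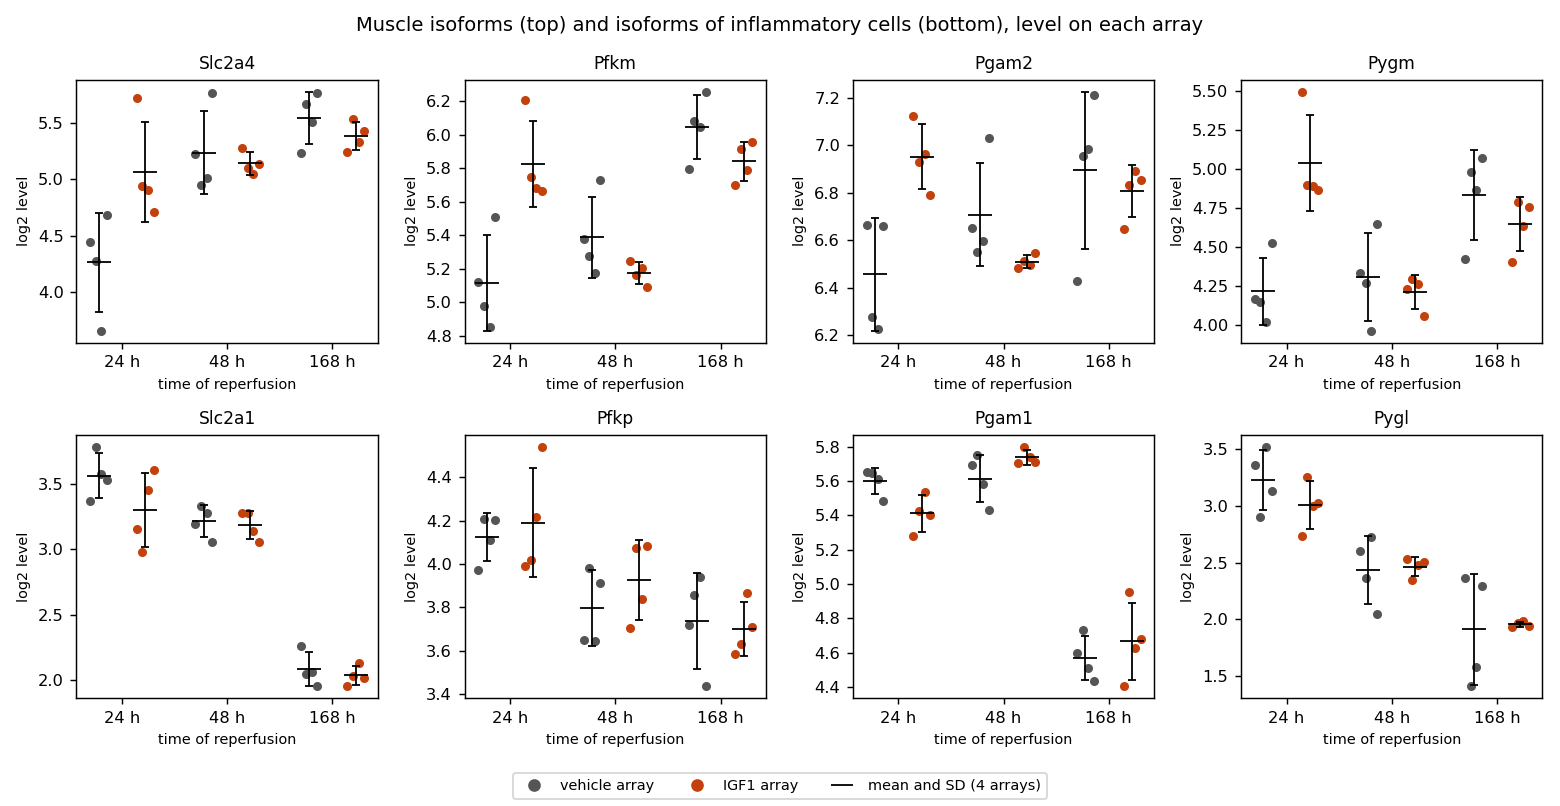
Level on each array, in log2 units with the 75th percentile at 0, of 4 muscle isoforms (top) and 4 isoforms of inflammatory cells (bottom) over the 6 groups, with mean and SD of 4 arrays and a separate axis for each gene. Slc2a1 and Pgam1 are low on all 8 arrays of 168 h, and the muscle isoforms are higher in IGF1 than in vehicle hearts at 24 h.

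The sequences before the start sites of 4 of these genes are shown because Pgam1, Slc2a1 and Slc16a3 fell together after 48 h whereas Pgam2, the muscle partner of Pgam1, was not called in that interval (0.19, SE 0.14). Each line holds the 250 bases upstream of the start site, 5′ to 3′ on the gene's strand, from RefSeq on GRCm38.p6. Capitals mark ACGTG or GCGTG on either strand, the core of the element that hypoxia-inducible factors bind, in Pgam1 (chr19:41911621-41911870, plus strand), Slc2a1 (chr4:119108495-119108744, plus strand) and Slc16a3 (chr11:120948817-120949066, plus strand), and the MEF2 motif on either strand in Pgam2 (chr11:5803797-5804046, minus strand).
Pgam1: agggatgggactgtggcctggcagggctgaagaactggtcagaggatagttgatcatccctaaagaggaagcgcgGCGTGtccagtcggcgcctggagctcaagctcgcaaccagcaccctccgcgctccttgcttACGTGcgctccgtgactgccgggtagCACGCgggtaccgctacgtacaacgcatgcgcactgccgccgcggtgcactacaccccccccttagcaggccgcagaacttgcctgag
Slc2a1: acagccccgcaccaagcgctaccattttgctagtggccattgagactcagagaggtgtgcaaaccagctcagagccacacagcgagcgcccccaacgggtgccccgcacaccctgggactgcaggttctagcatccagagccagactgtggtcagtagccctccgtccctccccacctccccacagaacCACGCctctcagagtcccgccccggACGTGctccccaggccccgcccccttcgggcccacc
Slc16a3: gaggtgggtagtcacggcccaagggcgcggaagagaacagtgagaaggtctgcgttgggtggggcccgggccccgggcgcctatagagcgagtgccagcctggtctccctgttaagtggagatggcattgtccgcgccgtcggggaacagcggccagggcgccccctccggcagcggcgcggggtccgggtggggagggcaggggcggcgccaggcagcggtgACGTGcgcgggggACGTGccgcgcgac
Pgam2: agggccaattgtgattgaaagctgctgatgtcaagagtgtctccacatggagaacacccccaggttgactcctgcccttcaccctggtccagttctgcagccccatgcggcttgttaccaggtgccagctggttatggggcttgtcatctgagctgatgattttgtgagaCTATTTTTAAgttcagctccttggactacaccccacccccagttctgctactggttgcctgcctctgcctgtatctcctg
The hypoxia core stands 3 times in the Pgam1 window, 2 times in that of Slc2a1, 2 times in that of Slc16a3 and 0 times in that of Pgam2. The Pgam2 window holds 1 MEF2 motif and 5 copies of CANNTG, the E-box of muscle factors, and the 3 other windows hold 0 of either. Of all 32851 promoter windows of this length, 38.6% held ACGTG or GCGTG, 66.2% CANNTG and 2.92% the MEF2 motif. ACGTG is also part of CACGTG, which is a form of CANNTG. Promoters of 34 of the 36 genes were matched, in 53 windows, and Slc2a3 and Slc2a4 were not. ACGTG or GCGTG stood in 18 of 18 windows of isoforms of inflammatory cells, 14 of 19 of muscle isoforms and 8 of 16 of shared steps, where several windows can belong to 1 gene and overlap. In the same order, CANNTG stood in 7, 14 and 13 windows and the MEF2 motif in 0, 1 and 1. The 1 among muscle isoforms is that of Pgam2. The 4 genes shown were picked by hand. Eno1, which also fell after 48 h, is not shown, and its windows hold 2 or 0 copies of CANNTG. A match is a string of letters and not a bound site.

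The interval was also taken in its 2 steps. From 24 to 48 h in vehicle hearts 3 of the 36 genes rose (Slc2a4, Pfkfb2 and Gys1) and 4 fell (Pygl, Aldoc, Pfkfb4 and Slc2a1), while 11.2% of all genes were called higher and 11.5% lower. With slide as a block 11 genes were called in that interval in place of 7. From 48 to 168 h 5 rose and 10 fell, against 25.1% and 28.1% of all genes. Only slide 4 held vehicle arrays of both 48 and 168 h, 1 of each. In neither step did the share of the 36 genes called exceed that of all genes in either direction. The 5 were Pfkm, Pygm, Ldhb, Pfkl and Pfkfb2, and the falls were led by Pgam1, Slc2a1, Eno1 and Slc16a3. Of 19 alternative fits, the call was lost in 10 for Pfkl, 10 for Pfkfb2, 9 for Ldhb, 1 for Pygm and 0 for Pfkm. With slide as a block, the calls of Pfkl, Pfkfb2, Ldhb and Pygm were lost, that of Pygm only there (limma adjusted p = 0.136). Pfkm and the falls of Pgam1, Slc2a1, Eno1 and Slc16a3 kept theirs. From 48 to 168 h, 11 to 22 members were called across other settings and 11 to 19 with 1 array left out. Hk3 fell by 2.09 (SE 0.36), Pfkfb1 by 0.70 (SE 0.21), Pkm by 0.39, Pgk1 by 0.29, Ldha by 0.29 and Pygl by 0.52. The Pygl call was lost in 7 of the 19 alternative fits and the Ldha call in 3. For Pdk1, which was not called (0.20), another probe of the gene was called lower in this interval.

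Genes of the pentose phosphate route fell in the same interval: of 11 genes of the pentose phosphate, hexosamine and polyol routes, 0 rose and 7 fell between 48 and 168 h. Pgd fell by 1.07 (SE 0.10), Taldo1 by 0.87 (SE 0.09), G6pdx by 0.98 (SE 0.12) and Tkt by 0.79 (SE 0.10). G6pdx and Pgd make the NADPH that neutrophils use for their oxidative burst. Among regulators, Myc, a driver of glycolytic genes in growing cells, fell by 1.97 (SE 0.15), Hif1a, the hypoxia factor, by 0.57 (SE 0.09) and Akt1 by 0.41 (SE 0.07), whereas Irs1, the adaptor of the insulin and IGF1 receptors, rose by 1.43 (SE 0.17). The counts that follow are for 24 to 168 h, over which 28.1% of all genes were called higher and 32.1% lower. Of the other glycogen genes, 9 of 19 rose and 4 fell. Ppp1r3c, which targets phosphatase to glycogen and favours storage, rose by 1.49 (SE 0.19), Gaa, which digests glycogen in lysosomes, by 1.08 (SE 0.12) and Phkb by 0.74 (SE 0.10), while Ppp1r3d fell by 1.08 (SE 0.09). Of the other glycolytic and carrier genes, 6 of 17 rose and 3 fell, among them the enolase of neurons Eno2 (1.10, SE 0.13), the carriers Slc2a12 (1.69, SE 0.28) and Slc2a10 (0.72, SE 0.11), and Gpd1 (-1.0, SE 0.12). Of the other pyruvate genes 2 of 10 rose and 1 fell, with Pdp1, a phosphatase that switches the complex on, at 0.58 (SE 0.12), Pdp2, its fellow phosphatase, at -0.33 (SE 0.11) and Dlat at 0.44 (SE 0.18). Pdk4 had fallen by 48 h (-1.28, SE 0.33, adjusted p = 0.00885), to 2.06, 2.88, 2.93 and 3.02.

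Cell type markers also moved in vehicle hearts between 24 and 168 h. Of 11 neutrophil markers 0 rose and 8 fell (median -4.69), and the log2 of their summed signal went from 8.45 to 9.08 at 24 h to 6.35 to 7.04 at 168 h. Of 15 monocyte and macrophage markers 7 rose and 6 fell (median 0.15), with a summed signal of 8.23 to 8.58 and 8.18 to 8.46. Of 10 fibroblast markers 9 rose and 0 fell (median 2.67), with a summed signal of 7.64 to 8.25 and 10.41 to 10.57. Of 14 cardiomyocyte markers 6 rose and 0 fell (median 0.18; 11.09 to 11.49 and 11.20 to 11.59), and of 5 red cell markers 0 rose and 2 fell. Their part in the changes of the 36 genes was not tested. With each array scaled to its median instead, the median difference of all genes between 24 and 168 h in vehicle hearts moved by -0.106.

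Within IGF1 hearts, most calls between 24 and 48 h were falls. From 24 to 48 h 2 of the 36 genes rose and 12 fell, while 16.3% of all genes were called higher and 21.3% lower. These comparisons share the IGF1 arrays of 24 h with the comparison to vehicle above, so they are not separate evidence of the difference at 24 h. The falls took in 7 of 12 muscle isoforms, led by Ldhb (-0.75, SE 0.13), Pygm (-0.83, SE 0.16) and Pfkm (-0.65, SE 0.14), and 4 of 10 shared steps, among them Gapdh (-0.45, SE 0.10) and Pdha1 (-0.59, SE 0.14). At 48 h the IGF1 arrays of Ldhb were at 6.89, 6.89, 6.94 and 6.95, those of Pygm at 4.23, 4.29, 4.26 and 4.05 and those of Pfkm at 5.24, 5.16, 5.20 and 5.09, all below every IGF1 array of 24 h. Gapdh, often used as a reference gene, went from 8.56, 8.52, 8.39 and 8.64 to 8.11, 8.15, 8.01 and 8.05. Pdk3 rose from -2.24, -1.80, -1.88 and -1.76 to -1.34, -1.33, -1.08 and -1.19 (0.68, SE 0.13, adjusted p = 0.000318), and Pgam1 by 0.33 (SE 0.10). Eno1 was not called (-0.02), while another of its probes was called in the opposite direction. Pdk4 fell 11.4-fold (log2 -3.51, SE 0.33, adjusted p = 1.89e-07), to 1.86, 3.02, 2.09 and 2.35. Cardiomyocyte markers fell too, with 0 of 14 higher and 9 lower.

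From 48 to 168 h in IGF1 hearts 3 genes rose and 12 fell, against 22.6% and 26.2% of all genes, and from 24 to 168 h 3 rose and 22 fell, against 24.6% and 33.9%. No slide held IGF1 arrays of both 48 and 168 h, so that step has no comparison within a slide. Between 48 and 168 h the rises were Pfkm (0.66, SE 0.14), Pfkfb2 (0.62, SE 0.22) and Pygm (0.44, SE 0.16), and the falls were led by Pgam1 (-1.07, SE 0.10), Slc2a1 (-1.15, SE 0.11), Slc16a3 (-1.08, SE 0.16) and Eno1 (-0.56, SE 0.09). Among these rises, the call was lost in 9 of 19 alternative fits for Pygm, 5 for Pfkfb2 and 1 for Pfkm. With slide as a block each of these rises lost its call, Pfkm at a limma adjusted p of 0.0799. The falls of Pgam1, Slc2a1, Slc16a3 and Eno1 kept theirs. Slc2a1 ended at 1.96, 2.03, 2.14 and 2.02, Pgam1 at 4.40, 4.95, 4.63 and 4.68, Slc16a3 at 2.59, 2.46, 2.69 and 2.55 and Eno1 at 5.49, 5.67, 5.69 and 5.87, without overlap with 48 h. Over the whole interval Hk1 fell by 0.79 (SE 0.12), to 5.02, 5.16, 5.14 and 5.13, and Pkm by 0.56 (SE 0.07), to 5.76, 6.02, 6.07 and 5.97. Pfkfb1 fell by 1.11 (SE 0.21), to -1.18, -0.81, -1.10 and -0.98. Only Pdk3 (0.50, SE 0.13), Pfkfb2 (0.85, SE 0.22) and Pfkl (0.29, SE 0.12) rose between 24 and 168 h in IGF1 hearts. Of 19 alternative fits, the call was lost in 10 for Pfkl, 1 for Pfkfb2 and 0 for Pdk3. Within the 2 slides that held IGF1 arrays of both times, the median difference was -0.61 and -0.057 for muscle isoforms and -0.44 and -0.62 for isoforms of inflammatory cells. On the first of these slides the only 24 h array was replicate 1, which stood apart at 24 h, set against 3 arrays of 168 h. On the other, 1 array was set against 1.

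Set against each other on the same array, muscle isoforms gained on their counterparts at 24 h under IGF1. For each of 13 pairs of isoforms of 1 step, the log2 ratio of the muscle gene to the gene of inflammatory cells was taken per array. Its zero has no meaning, since the probes differ, and only its change between groups is read, with no test. At 24 h the ratio was higher in IGF1 than in vehicle hearts for 13 of 13 pairs, by 0.41 to 1.15 (median 0.68). The arrays did not overlap for 9 of the pairs. Among all single genes, 18.3% were without overlap in this comparison, in either direction, and no such share was taken for ratios of other genes. The ratio of Pdk2 to Pdk3 changed by 1.14, that of Pygm to Pygl by 1.05, that of Pgam2 to Pgam1 by 0.68 and that of Ldhb to Ldha by 0.53. At 48 h it was higher for 4 of 13 pairs and at 168 h for 0 of 13 (median -0.16), with 0 pairs free of overlap at either time. The pairs share genes (Slc2a4 and Pfkm stand in 2 each) and arrays.

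In vehicle hearts the ratio rose between 24 and 168 h for 13 of 13 pairs, by 0.48 to 2.77 (median 1.26), without overlap for 11. Among all single genes, 52.9% were without overlap over this interval, in either direction. The ratio rose by 2.77 for Slc2a4 to Slc2a1, 1.94 for Pygm to Pygl and 1.47 for Pgam2 to Pgam1. Hk2 to Hk3 (0.95) and Pdk2 to Pdk3 (0.63) overlapped. In IGF1 hearts, which started higher at 24 h, it rose over the same interval for 10 of 13 pairs (median 0.51), and had fallen between 24 and 48 h for 9 of 13.

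**Figure D5:**
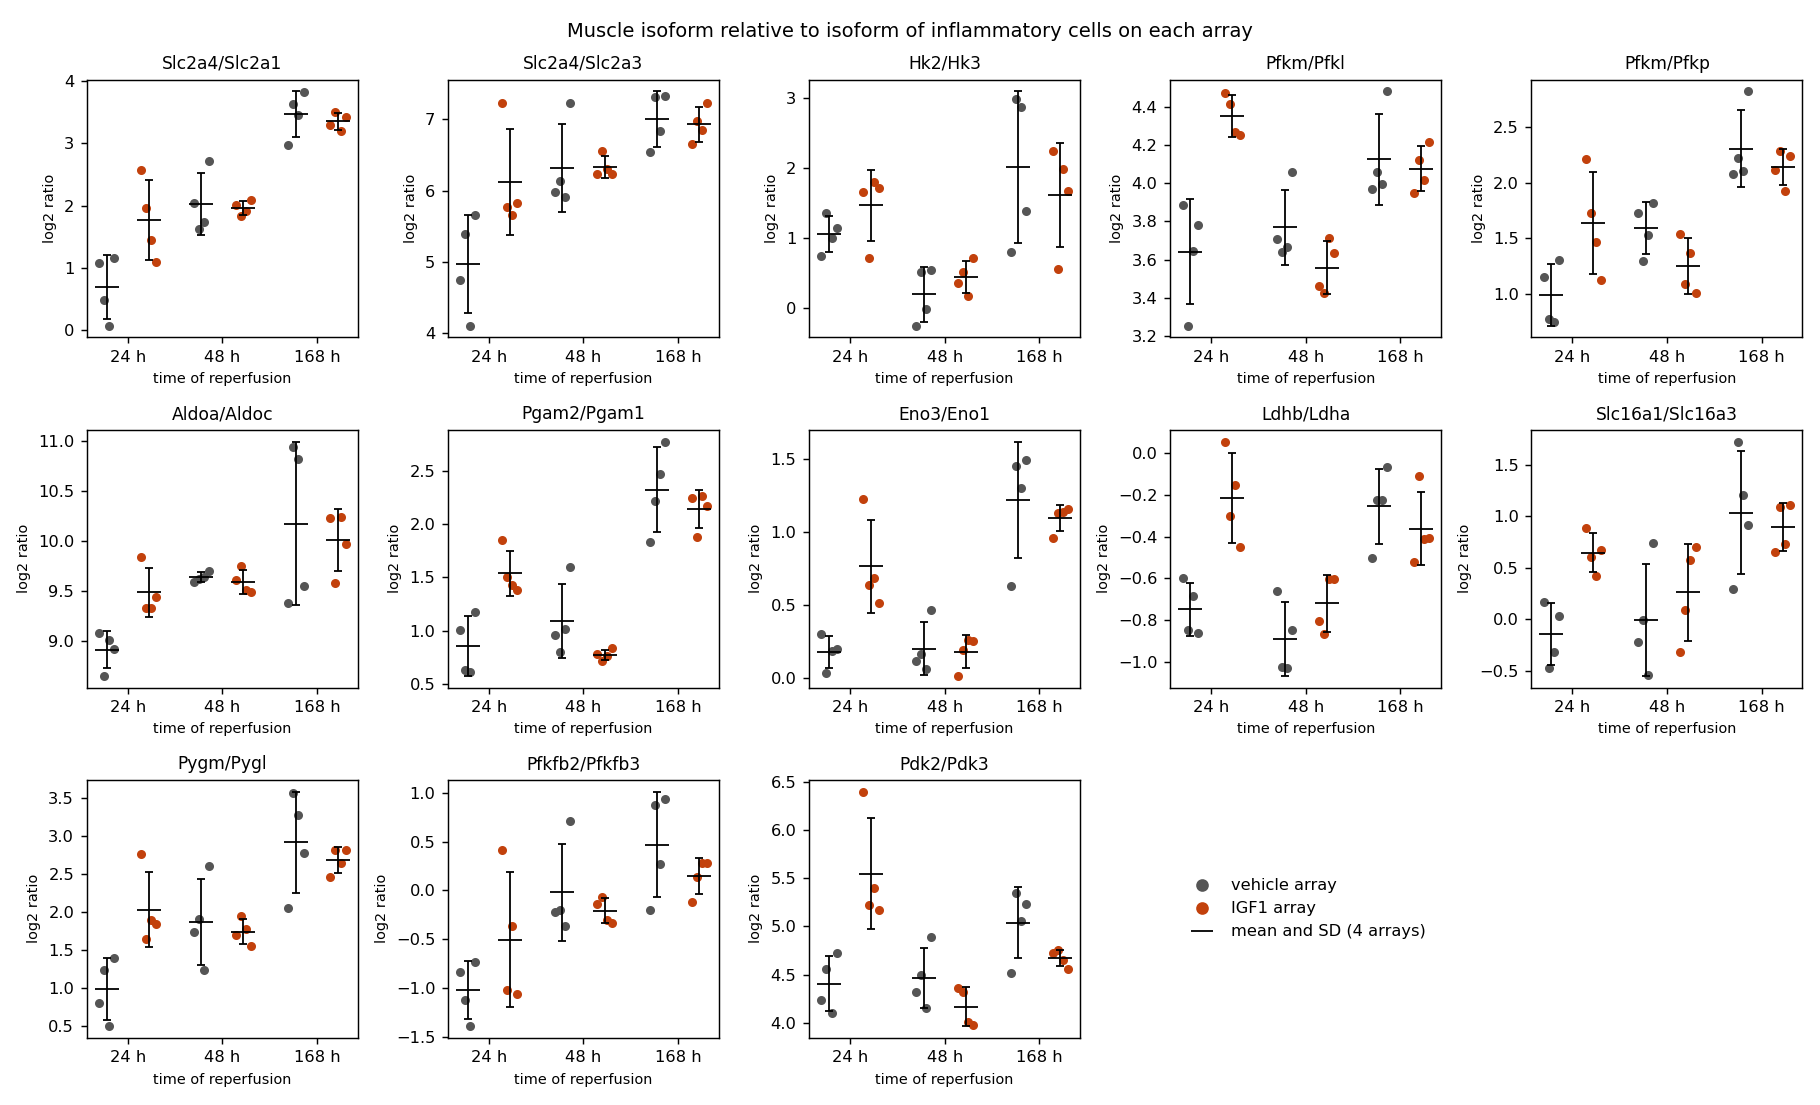
Log2 ratio of each muscle isoform to its counterpart of inflammatory cells on each of 24 arrays, in 13 pairs over the 6 groups, with mean and SD of 4 arrays; each panel has its own axis, and only changes within a panel can be read. The ratio is higher in IGF1 than in vehicle hearts at 24 h in all 13 pairs, and in vehicle hearts it is higher at 168 than at 24 h in all 13.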

How the data were processed

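RNA of 24 heart samples was measured on Agilent mouse 8x60K arrays with 1 colour. The authors deposited scanner intensity values, made with Agilent Feature Extraction 12.0.3.2 and background-corrected within the array, per the file headers. The authors' deposited value table holds log2 values, with scaling and centring not stated, and served as an alternative. Apart from probe means, it matched the values used here to within 0.00227, so it was nearly the same data. The 36 genes and all lists were chosen with earlier results of these data known.

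Outlier spots (53 to 130 of 59305 an array) were left out, spots of a probe averaged, and log2 intensity set against the array's 75th percentile (371.6 to 622.4). Of 56605 probes, 33767 had 1 symbol through RefSeq accessions, 22838 none and 0 several. Probes well above background on at least 4 of 24 arrays were kept, and the brightest stood for a gene. limma 3.58.1 (R 4.3.3) fitted 1 mean per group with lmFit and eBayes, with Benjamini-Hochberg adjustment over 15875 genes. Intensities carry no counts, and the number of arrays limits the precision.

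Values on every array are given for up to 4 called members with the smallest p in each direction and comparison, and their isoform partners, and for Pdk4; from each other list, up to 4 genes with the smallest p are named, and further members by role. Same-numbered arrays of vehicle and IGF1 correlated, as deviations from group means, with r of -0.050 to 0.134 at 24 h, -0.0049 to 0.112 at 48 h and 0.186 to 0.502 at 168 h. The numbers may thus pair samples at 168 h, but the main fit treated all arrays as unpaired. Replicate number entered only in an alternative, as a block over all times. Alternatives were normexp, quantile or median scaling, other filters, the mean of probes, slide or replicate number as a block, array weights, only the groups compared, and each array left out. Marker lists covered cardiomyocytes, neutrophils, monocytes and macrophages, lymphocytes, fibroblasts, endothelium, red cells, skeletal muscle and adipocytes.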

Additional observations from a re-analysis of the deposited data

Results flagged for a closer look

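In 216 sets of 4 arrays (36 genes in 6 groups), 9 had 1 array far from the other 3 by Dixon's criterion, which chance alone meets in about 1 in 20 sets. Of the 9, 4 were replicate 1 of IGF1 at 24 h, which was the highest for Ldhb (7.95, the others 7.53 to 7.60), Pdk2 (4.16, the others 3.41 to 3.51), Pfkm (6.21, the others 5.66 to 5.75) and Pygm (5.50, the others 4.87 to 4.89). All 4 genes were called at 24 h also without that array. The others were Aldoa in vehicle replicate 3 at 48 h (8.61, the others 8.74 to 8.75), Eno1 in vehicle replicate 4 at 24 h (6.63, the others 6.36 to 6.40), Gpi1 in vehicle replicate 4 at 48 h (7.35, the others 7.14 to 7.16), Gys1 in vehicle replicate 1 at 168 h (2.46, the others 2.78 to 2.83) and Pfkfb1 in IGF1 replicate 1 at 48 h (-0.49, the others -0.30 to -0.27).

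The effect of IGF1 differed between the 3 times for 4 genes by limma's F-test, with adjusted p of 0.0152 for Pfkm, 0.0178 for Pdk2, 0.0216 for Pygm and 0.0350 for Ldhb.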

How the results depend on the processing

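The 109 calls of members were recomputed under 2071 combinations of call and alternative: 1864 kept direction and call, 206 kept direction and lost the call, and 1 reversed, Aldoa between 24 and 48 h in IGF1 hearts, at 0.000194 after quantile normalization. The authors' value table lost 0 calls, but apart from probe means it differed from the values used here by at most 0.00227. It is therefore no separate check. The filter for probes above background on all 24 arrays also lost 0, and the chosen probe of each member already met it. At 24 h, 5 members were called with only the groups compared, 14 with slide as a block and 5 to 12 with 1 array left out. The mean of 3 times gave 0 to 1, vehicle 48 h against 24 h 11 with slide as a block and 5 to 9 with 1 array left out, and the F-test 7 with slide as a block, 8 with array weights and 2 to 7 with 1 array left out. The cause was not tested. With the replicate block, the calls were 11 at 24 h, 0 at 48 h and 0 at 168 h between treatments, 8, 16 and 24 in vehicle hearts (48 h against 24 h, 168 h against 48 h, 168 h against 24 h), 15, 15 and 25 in IGF1 hearts, and 4 by the F-test. The replicate block lost 0 calls. The ratio of Aldoa to Aldoc at 24 h was 0.84 with the mean of probes.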
